A study of Homo sapiens with 6 samples.

Results

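Kinesins are motor proteins that walk along microtubules or trim their ends, and the human genome carries a large family of genes for them. The members described here were chosen by symbol: every gene row named KIF with a number, with or without a further letter and number, and KIFC1, KIFC2 and KIFC3, but not the kinesin-binding protein gene KIF1BP. This rule found 42 of the 19940 gene rows. By known role, 14 of them were listed as mitotic kinesins, 15 as transport kinesins and 13 as other kinesins. The cells were U2OS, a human osteosarcoma line, kept under G418 with a stable GFP-DCP1a transgene, a fluorescent marker of P-bodies. Total RNA was sequenced after ribosomal RNA removal in 6 libraries, and the stated aim was to assess transcriptional changes.

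The rescue group had 4 h in medium with 300 mM sodium and then 4 h in isotonic medium. Cells of the hypertonic group had 4 h in medium with 300 mM sodium, made with concentrated phosphate-buffered saline. Isotonic cells were kept at 150 mM sodium, with a mock addition of the same saline at normal strength. Each group had 2 libraries, numbered 1 and 2, and all 3 groups carried the transgene. Rescue cells were harvested later than the others, and effects of that delay and of the return to isotonic medium cannot be told apart. Whether both libraries of a group stem from separate cultures is not stated in the labels. The spread between the rescue libraries, on which each p-value partly rests, may therefore be purely technical.

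Mitotic kinesins build the spindle, move and align chromosomes, and help to divide the cell, and many of their transcripts are known to accumulate as cells approach mitosis. Transport kinesins carry vesicles, organelles, protein complexes and RNA along microtubules, mostly toward the cell edge, and are used in interphase cells as well. Further members act in cilia, in signalling or at microtubule ends.

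The hypertonic and isotonic libraries went against their labels. Over the 40 kinesins with at least 100 summed counts, the SD of the log2 ratio between libraries was 0.616 for hypertonic 1 with hypertonic 2 and 0.591 for isotonic 1 with isotonic 2. It was only 0.0768 for hypertonic 1 with isotonic 2 and 0.135 for hypertonic 2 with isotonic 1. Rescue 1 and rescue 2 differed with an SD of 0.0895. The same held over all 17388 genes with that many counts, with an SD of 0.952 within hypertonic and 0.962 within isotonic against 0.195 and 0.183 across the labels. All groups were kept as labelled, every direction below refers to the library labels, and results are also given from fits with 1 hypertonic and 1 isotonic library of the same number. In fits of all 6 libraries, the spread behind each p-value also holds the differences between these crossed pairs.

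Total counts per library lay between 90196278 and 105991428, and 3 counts correspond to between 0.0283 and 0.0333 CPM, the unit used here for counts relative to each library's total. In contrast, fold changes come from edgeR with TMM scaling, whose factors were 1.14 and 1.15 in rescue and between 0.885 and 0.986 in the other 4 libraries. Of the osteosarcoma's bone lineage markers, 3 of 8 reached a mean of 5 CPM (RUNX2, SPARC and COL1A1), while BGLAP, SPP1, ALPL, SP7 and COL1A2 did not. COL1A2 had a mean of 0.118 CPM and SP7 of 0.328 CPM. RUNX2 differed between libraries, at 62.8 and 68.6 CPM in rescue, 17.2 and 76.1 CPM in hypertonic and 77.7 and 17.6 CPM in isotonic. The summed epithelial markers lay at 17.4 and 16.2 CPM in rescue, 5.82 and 7.05 CPM in hypertonic and 7.60 and 5.38 CPM in isotonic, with EPCAM the only 1 of 4 at a mean of 5 CPM. None of the 4 leukocyte markers reached it: their sums were 3.50 and 2.92 CPM in rescue, 2.95 and 0.589 CPM in hypertonic and 0.437 and 2.83 CPM in isotonic, and CD3E was at 0 in all 4 hypertonic and isotonic libraries. In bulk RNA, fewer cells of a type and less RNA per cell cannot be told apart.

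Mitotic kinesin transcripts were lower in rescue cells. Summed over the 14 genes, they took 743 and 752 CPM in rescue 1 and 2, against 1054 and 1599 CPM in hypertonic 1 and 2 and 1613 and 1054 CPM in isotonic 1 and 2. In edgeR's quasi-likelihood test with Benjamini-Hochberg adjustment over 18208 genes at a threshold of 0.05, 9 of the 13 tested mitotic kinesins fell in rescue against isotonic and 0 rose, where 23.1% of all genes tested were called and 13.5% fell. Rescue against hypertonic gave 9 lower and 0 higher, where 23.6% of all genes tested were called and 13.8% fell. The median log2 fold change of the 13 was -1.09 against either group, beside a median of -0.02 over all genes. Both comparisons share the rescue libraries and the model. The hypertonic and isotonic groups also hold nearly the same pair of profiles, as described above. Like results against both are therefore not independent.

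**Figure D1:**
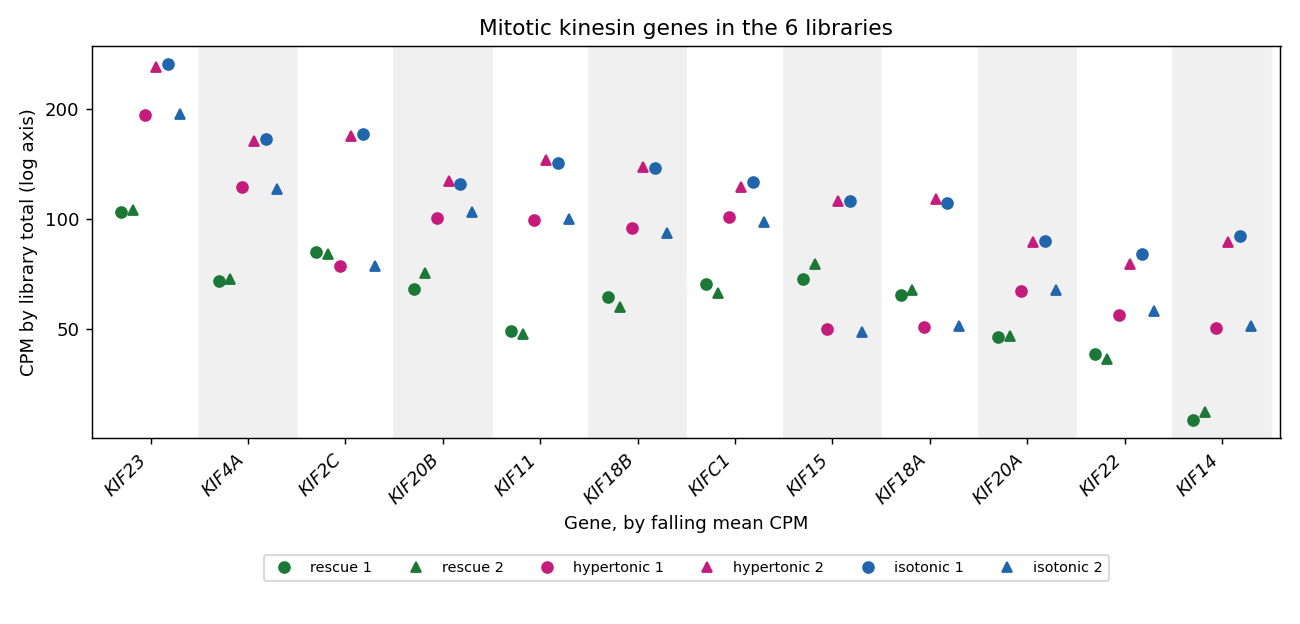
Library-total CPM (log axis) of each mitotic kinesin with a mean of at least 5 CPM; each point is 1 library, in the order rescue, hypertonic and isotonic, with circles for number 1 and triangles for number 2. The rescue points of KIF11, at 49.4 and 48.4 CPM, lie below its other 4, while for KIF15 the rescue points lie between the crossed pairs of hypertonic and isotonic libraries.

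Among the motors that assemble the spindle, KIF11, which pushes the spindle poles apart, is at chr10:92593286-92655395 on the plus strand (GRCh38). In rescue it stood at 49.4 and 48.4 CPM, against 99.3 and 145 CPM in hypertonic and 143 and 100.0 CPM in isotonic. Both rescue libraries lay below the other 4, and the fall against isotonic had a log2 fold change of -1.59 ± 0.20 (SE; edgeR adjusted p = 0.0134). KIFC1, a motor that moves toward microtubule minus ends and focuses the poles, stood at 66.3 and 62.6 CPM in rescue, 101 and 122 CPM in hypertonic and 126 and 98.2 CPM in isotonic. Its rescue values were again the lowest, and it fell 2.12-fold against isotonic (edgeR adjusted p = 0.0112) and 2.13-fold against hypertonic (edgeR adjusted p = 0.0109).

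Motors that ride on chromosome arms fell as well. KIF4A, which binds chromosomes and later shortens microtubules of the central spindle, had 67.6 and 68.4 CPM in rescue, 122 and 164 CPM in hypertonic and 166 and 121 CPM in isotonic, a 2.57-fold fall against isotonic (edgeR adjusted p = 0.0123). KIF4B, a near-identical intronless copy of KIF4A, had at most 0.582 CPM, and reads may be shared between both, so both values are uncertain; the span of KIF4A also overlaps PDZD11. KIF22, which pushes chromosomes away from the poles, had 42.6 and 41.3 CPM in rescue, 54.4 and 75.3 CPM in hypertonic and 80.1 and 55.9 CPM in isotonic. Its fall was 1.97-fold against isotonic (edgeR adjusted p = 0.0305).

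The motors of cytokinesis also had their lowest values in rescue. KIF23, a subunit of the centralspindlin complex that organises the central spindle, is at chr15:69414246-69448427 on the plus strand. It stood at 104 and 106 CPM in rescue, 193 and 260.1 CPM in hypertonic and 266 and 193 CPM in isotonic, with a log2 fold change of -1.41 ± 0.17 against isotonic (SE; edgeR adjusted p = 0.0118). KIF20A, which brings the chromosomal passenger complex to the central spindle, had 47.6 and 47.8 CPM in rescue, 63.4 and 86.3 CPM in hypertonic and 86.8 and 63.8 CPM in isotonic, and fell 1.92-fold against isotonic (edgeR adjusted p = 0.0250). The KIF20A span overlaps those of BRD8 and CDC23, so its counts are uncertain. In both genes the rescue values lay below every other library.

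KIF14, which anchors citron kinase at the midbody, had 28.1 and 29.7 CPM in rescue, 50.2 and 86.2 CPM in hypertonic and 89.5 and 50.9 CPM in isotonic (edgeR adjusted p = 0.0362 for rescue against isotonic). KIF20B, needed to complete cell separation, had 64.3 and 71.3 CPM in rescue, 101 and 127 CPM in hypertonic and 124 and 105 CPM in isotonic, a 2.07-fold fall against isotonic (edgeR adjusted p = 0.0113). KIF18B, which controls astral microtubules, had 61.1 and 57.5 CPM in rescue, 94.5 and 138 CPM in hypertonic and 138 and 91.7 CPM in isotonic, a 2.35-fold fall against isotonic (edgeR adjusted p = 0.0258). None of the rescue values of these 3 genes reached the lowest of their other 4 libraries.

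KIF2C, KIF18A and KIF15 were not called, and by library total their rescue values lay between the crossed library pairs. KIF2C, a kinetochore depolymerase that frees wrongly attached microtubules, stood at 81.2 and 80.0 CPM in rescue, 74.5 and 169 CPM in hypertonic and 171 and 74.2 CPM in isotonic. KIF18A, which damps chromosome movements at metaphase, had 62.0 and 63.7 CPM in rescue, 50.5 and 113 CPM in hypertonic and 110.5 and 50.8 CPM in isotonic. KIF15, a motor that can take over from KIF11, had 68.6 and 75.3 CPM in rescue, 49.9 and 112 CPM in hypertonic and 112 and 49.0 CPM in isotonic. On this scale hypertonic 1 and isotonic 2 were below rescue, and hypertonic 2 and isotonic 1 above it; by TMM-scaled CPM the rescue values of KIF2C and KIF18A were below all 4 others, and those of KIF15 lay between the pairs. None passed the test against isotonic, with edgeR adjusted p of 0.274 for KIF2C, 0.395 for KIF18A and 0.570 for KIF15. The SEs of their log2 fold changes were 0.50, 0.48 and 0.49, and the spread behind them includes the difference between the crossed pairs. KIF15 overlaps TMEM42 and KIF18A overlaps METTL15, so both counts are uncertain. KIF2B, a further depolymerase, had at most 2 counts in a library and was not tested.

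Leaving out 1 rescue or 1 isotonic library ended every call in rescue against isotonic, in the family and over all genes, and leaving out 1 rescue or 1 hypertonic library did the same in rescue against hypertonic. When the fit held rescue with the number 1 libraries of hypertonic and isotonic alone, edgeR called 13 of 13 mitotic kinesins lower against isotonic, where 79.1% of all genes were called and 38.6% fell, and 11 lower against hypertonic, where 81.4% were called and 40.5% fell. With the number 2 libraries it called 11 lower and 1 higher (KIF15) against isotonic, where 80.8% of all genes were called, 40.1% lower and 40.7% higher, and 12 lower against hypertonic, where 79.1% were called and 38.6% fell. In these fits by number the spread came from the rescue libraries alone, and the single hypertonic and isotonic library was assumed to vary like them. Leaving out isotonic 1 or isotonic 2 gave KIF11 log2 fold changes of -1.41 and -1.77 against isotonic, and KIF23 -1.25 and -1.56. KIF15 changed sign, at 0.18 and -0.86. Since calls ended over all genes, their loss says nothing particular about the kinesins.

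Scaling moved the count of calls. With library totals in place of TMM, the median of all genes shifted up by 0.29 on the log2 scale in rescue against isotonic and by 0.30 in rescue against hypertonic. The share of called genes that were lower then was 34.8% in place of 58.4% against isotonic, and 34.2% in place of 58.3% against hypertonic; with upper quartile scaling it was 40.2% and 40.4%. Under library totals KIF11, KIF23, KIF4A and KIFC1 kept their call in each comparison, 4 in all, and the fold changes of the 13 had a median of -0.80 against isotonic, beside 0.27 over all genes. Both rescue libraries were below all 4 others in 10 of 13 mitotic kinesins by library total, where that held for 21.8% of all genes tested, and in 12 of 13 by TMM-scaled CPM, where it held for 33.6%.

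Between hypertonic and isotonic, 0 of the 40 tested kinesins were called. edgeR called 0% of 18208 genes, with 52 at an unadjusted p under 0.05; DESeq2 called 1 and limma voom 0. The medians of grouped fold changes hide opposite differences within the numbers, and those differences are part of the spread that the grouped test used. Among the 12 mitotic kinesins with a mean of at least 5 CPM, the log2 ratios of hypertonic over isotonic by library total had a median of -0.53 in number 1, beside -0.20 over 13155 genes, and 0.49 in number 2, beside 0.20. All 12 were lower in hypertonic 1 than in isotonic 1, and all 12 were higher in hypertonic 2 than in isotonic 2.

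The largest of these ratios were those of KIF2C in number 1, at -1.20, and of KIF15 in number 2, at 1.19. KIF20B had the smallest in both, at -0.30 in number 1 and 0.28 in number 2. In the fits by number, edgeR called 10 mitotic kinesins lower and 0 higher in number 1, where 64.2% of all genes were called, 32.6% lower and 31.6% higher. In number 2 it called 10 higher and 1 lower (KIF4B), where 63.9% of all genes were called, 32.9% higher and 31.0% lower. KIF2C, KIF15 and KIF18A had TMM-based log2 fold changes of -1.04, -1.01 and -0.97 in number 1 and of 1.05, 1.05 and 1.02 in number 2. By library total, hypertonic 1 and isotonic 2 were both below hypertonic 2 and isotonic 1 in 12 of the 13 tested mitotic kinesins, where that held for 53.1% of all genes tested (44.0% by TMM-scaled CPM).

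**Figure D2:**
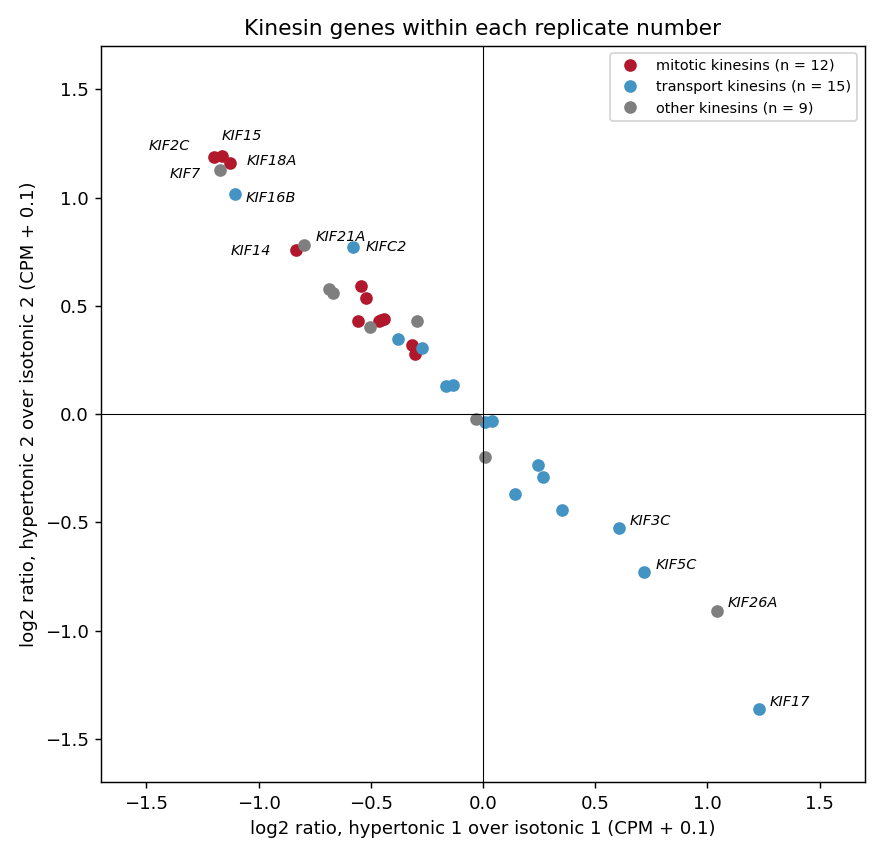
Log2 ratio of hypertonic over isotonic by library-total CPM plus 0.1, in number 1 (horizontal axis) and number 2 (vertical axis), for the 36 kinesins with a mean of at least 5 CPM; each point is 1 gene. The 12 mitotic kinesins lie at the upper left, lower in number 1 and higher in number 2, while KIF17 lies furthest to the lower right, at 1.23 in number 1 and -1.36 in number 2.

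Since many mitotic kinesins moved together, their promoters were read for letters known from cell cycle genes. RefSeq promoter sequences (GRCh38.p14) were found for 34 of the 42 members. The 100 bases before and 20 bases after the RefSeq transcript start were searched on both strands. These starts can differ from those of the gene spans given above, which come from GENCODE. The KIF11 window ends before its span begins, and the KIF23 window lies within its span. The first motif searched has the spellings TTTGAA and, as an alternative, TTTAAA. On the opposite strand the G-containing spelling reads TTCAAA. These letters are the core of the cell cycle genes homology region, an element described in promoters of genes that peak late in the cell cycle. The second motif was CCAAT, the letters that the factor NF-Y is known to bind. It reads ATTGG on the other strand. The motifs do not overlap each other in the windows shown. The windows below are those of 6 mitotic and 2 transport kinesins, shown so that the members that fell in rescue can be read beside KIF2C, KIF18A and KIF15, which did not pass, and beside a high and a strongly lower transport gene. Capitals mark the motifs.
KIF11 (chr10:92593030-92593149, plus strand): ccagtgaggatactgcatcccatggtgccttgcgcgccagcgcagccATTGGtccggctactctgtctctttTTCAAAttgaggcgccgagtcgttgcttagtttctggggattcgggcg
KIF23 (chr15:69414249-69414368, plus strand): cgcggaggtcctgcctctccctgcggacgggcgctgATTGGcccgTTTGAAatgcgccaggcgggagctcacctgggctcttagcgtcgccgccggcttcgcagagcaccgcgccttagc
KIF4A (chrX:70290004-70290123, plus strand): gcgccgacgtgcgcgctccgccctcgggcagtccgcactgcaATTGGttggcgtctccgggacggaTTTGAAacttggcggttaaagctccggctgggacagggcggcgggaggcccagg
KIF18A (chr11:28108137-28108256, minus strand): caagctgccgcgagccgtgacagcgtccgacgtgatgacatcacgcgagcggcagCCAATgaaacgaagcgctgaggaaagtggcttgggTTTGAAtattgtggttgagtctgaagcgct
KIF2C (chr1:44739737-44739856, plus strand): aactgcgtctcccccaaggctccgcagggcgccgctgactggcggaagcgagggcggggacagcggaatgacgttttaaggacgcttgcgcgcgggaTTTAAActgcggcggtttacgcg
KIF15 (chr3:44761694-44761813, plus strand): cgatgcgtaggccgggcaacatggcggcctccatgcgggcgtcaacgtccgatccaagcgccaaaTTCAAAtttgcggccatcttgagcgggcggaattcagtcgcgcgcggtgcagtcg
KIF5B (chr10:32056406-32056525, minus strand): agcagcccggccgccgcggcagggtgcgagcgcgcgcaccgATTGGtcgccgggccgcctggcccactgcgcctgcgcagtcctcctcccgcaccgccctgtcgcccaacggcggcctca
KIF1C (chr17:4997850-4997969, plus strand): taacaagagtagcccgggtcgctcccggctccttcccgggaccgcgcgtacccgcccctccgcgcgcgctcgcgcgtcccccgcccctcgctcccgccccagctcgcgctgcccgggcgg

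In this window the first motif was present in 11 of 14 mitotic kinesins (78.6%), 0 of 11 transport kinesins and 0 of 9 other kinesins with a sequence, and in 9.53% of all 35116 RefSeq promoters. CCAAT was present in 11 of 14 mitotic kinesins (78.6%), 2 of 11 transport kinesins (18.2%) and 3 of 9 other kinesins (33.3%), beside 19.5% of all promoters. Both stood together in 9 of 14 mitotic kinesins (64.3%), beside 2.08% of all promoters. The windows of KIF2C and KIF15 hold the first motif without CCAAT, whereas that of KIF18A holds both. The first motif was thus present both in members that passed the test and in members that did not. It was also absent from members that fell and are not shown above: the windows of KIF22 and KIF20B hold CCAAT alone. Over 300 bases KIF20B holds the first motif and KIF22 still lacks it. Over 300 bases the first motif was in 12 of 14 mitotic (85.7%), 2 of 11 transport (18.2%) and 0 of 9 other kinesins, beside 24.0% of all promoters. A gene counts once if any of its starts holds a motif, whereas all promoters are counted per start; the motifs and the window were chosen with expression values known, and a match describes letters alone.

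Transport kinesins also held members that fell in rescue, while none rose. Their sum was 868 and 885 CPM in rescue, 1321 and 1281 CPM in hypertonic and 1292 and 1328 CPM in isotonic. The hypertonic and isotonic sums were thus close to each other, while single members differed between the crossed pairs in opposite senses. KIF16B was lower in hypertonic 1 and isotonic 2, and KIF17 and KIF5C were higher there. edgeR called 6 of 15 lower and 0 higher in rescue against isotonic and likewise against hypertonic, with median log2 fold changes of -0.70 and -0.68. The share of all genes called lower was 13.5% and 13.8%, as above. As for the mitotic members, 0 calls were left without any 1 rescue or isotonic library in the comparison with isotonic, while the number 1 fit called 13 lower and 2 higher against isotonic (beside 38.6% and 40.5% of all genes) and the number 2 fit 12 lower and 1 higher (beside 40.1% and 40.7%). Against hypertonic the fits called 13 lower with 1 higher in number 1, where 40.5% of all genes fell and 41.0% rose, and 13 lower with 2 higher in number 2, where 38.6% fell and 40.5% rose.

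Of the 6 kinesin-3 motors in the class, which carry vesicles and organelles, KIF1A, KIF1B, KIF1C and KIF13A fell, and KIF13B and KIF16B did not pass, with log2 fold changes of -0.55 (edgeR adjusted p = 0.151) and 0.14 (edgeR adjusted p = 0.849) against isotonic. KIF1C, at chr17:4997948-5028401 on the plus strand, carries secretory and integrin-containing vesicles. In rescue it stood at 39.2 and 38.5 CPM, against 106 and 113 CPM in hypertonic and 116 and 103 CPM in isotonic. The hypertonic and isotonic libraries lay close together and all well above rescue, and KIF1C fell 3.46-fold against isotonic (log2 fold change -1.79 ± 0.10, SE; edgeR adjusted p = 0.00834) and 3.48-fold against hypertonic (edgeR adjusted p = 0.00832).

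KIF1A, known as a carrier of synaptic vesicle precursors in neurons, had 30.9 and 29.8 CPM in rescue, 62.9 and 78.2 CPM in hypertonic and 76.0 and 63.2 CPM in isotonic, a 2.80-fold fall against isotonic (edgeR adjusted p = 0.00891). KIF1B, with isoforms that move mitochondria or vesicle precursors, had 78.6 and 80.9 CPM in rescue, 188 and 155 CPM in hypertonic and 156 and 189 CPM in isotonic, a 2.67-fold fall (edgeR adjusted p = 0.0197). KIF13A, which moves recycling endosomes, had 56.2 and 60.4 CPM in rescue, 104 and 99.9 CPM in hypertonic and 101 and 102 CPM in isotonic, a 2.14-fold fall (edgeR adjusted p = 0.0116). All 3 had both rescue libraries below the other 4. The same held for 8 of the 15 transport kinesins by library total, beside 21.8% of all genes tested. By TMM-scaled CPM it held for 12, beside 33.6%. KIF5C alone had both rescue values above the other 4 by library total, as held for 46.9% of all genes tested.

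KIF5B, at chr10:32009010-32056431 on the minus strand, is the widely expressed heavy chain of conventional kinesin. Per kilobase it had the highest mean level of the family, at 67.6 CPM per kilobase of exon. By library total it stood at 301 and 307 CPM in rescue, 442 and 440.0 CPM in hypertonic and 439.6 and 452 CPM in isotonic. The 4 hypertonic and isotonic libraries lay close together above rescue, and the fall against isotonic was 1.80-fold (edgeR adjusted p = 0.0144).

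Of the kinesin-2 motors, which drive transport in cilia, KIF3B passed the test and KIF3A, KIF3C and KIF17 did not. KIF3B had 75.8 and 74.5 CPM in rescue, 86.9 and 110.0 CPM in hypertonic and 113 and 86.6 CPM in isotonic, a 1.62-fold fall against isotonic (edgeR adjusted p = 0.0291; 0.214 with library totals). Its partner KIF3A had 35.0 and 36.8 CPM in rescue, 43.4 and 36.9 CPM in hypertonic and 36.6 and 43.5 CPM in isotonic, and did not pass against isotonic (edgeR adjusted p = 0.194). By library total its rescue 2 value overlapped with isotonic 1, while by TMM-scaled CPM both rescue libraries, at 30.6 and 31.9, lay below the other 4. KIF17, a homodimeric relative, had 8.42 and 8.77 CPM in rescue, 8.44 and 3.29 CPM in hypertonic and 3.54 and 8.63 CPM in isotonic. The pairs crossed here in the opposite sense to the mitotic kinesins: hypertonic 2 and isotonic 1 were low, and rescue was close to hypertonic 1 and isotonic 2.

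KIF16B, which moves early endosomes, had 43.1 and 48.1 CPM in rescue, 21.0 and 47.0 CPM in hypertonic and 45.3 and 23.2 CPM in isotonic, so that it was low in hypertonic 1 and isotonic 2 alone. In the number 1 fit it was 1.93-fold lower in hypertonic, and in the number 2 fit 1.83-fold higher. The hypertonic over isotonic ratios of the 15 transport kinesins had a median of 0.04 in number 1, beside -0.20 over all genes at that level, and of -0.04 in number 2, beside 0.20. In number 1, 6 were lower and 9 higher in hypertonic, and in number 2, 9 were lower and 6 higher. The edgeR fits called 3 of the 15 lower and 8 higher in number 1, where 32.6% of all genes were lower and 31.6% higher, and 7 lower and 3 higher in number 2, where 31.0% were lower and 32.9% higher. Both hypertonic 1 and isotonic 2 were above hypertonic 2 and isotonic 1 in 9 of the 15 by library total, where that held for 35.0% of all genes tested, and in 9 by TMM-scaled CPM, where it held for 43.7%. The other 6 members (KIF3C, KIF5A, KIF5C, KIF13B, KIFC2 and KIFC3) passed neither comparison with rescue. Their log2 fold changes against isotonic lay between -0.94 for KIF3C and 0.35 for KIF5C.

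**Figure D3:**
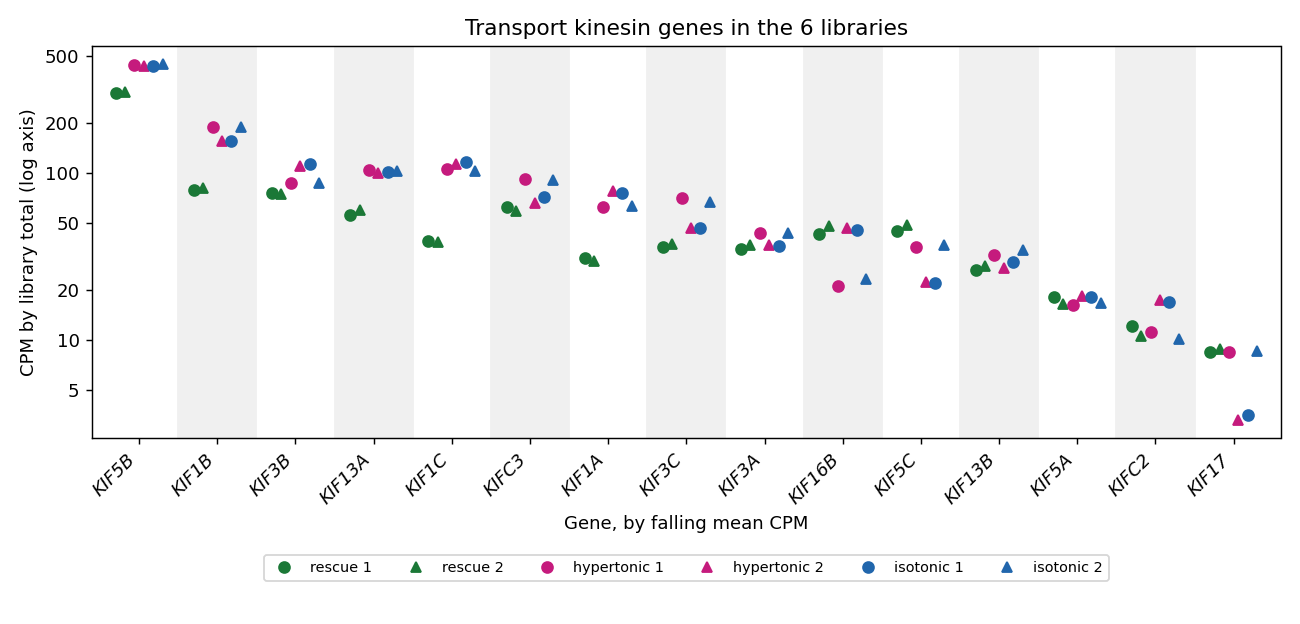
Library-total CPM (log axis) of the 15 transport kinesins in order of falling mean; each point is 1 library, in the order rescue, hypertonic and isotonic, with circles for number 1 and triangles for number 2. KIF5B, KIF1B, KIF13A, KIF1C and KIF1A have both rescue points below the other 4, and KIF16B and KIF17 show the crossed pairs.

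Of the 13 other kinesins, 12 were tested, 1 fell and 5 rose in rescue against isotonic, and the same counts held against hypertonic; 9.61% and 9.86% of all genes tested rose. KIF2A, a depolymerase that trims microtubules at spindle poles and in neurons, had 139 and 150.1 CPM in rescue, 221 and 229 CPM in hypertonic and 226 and 232 CPM in isotonic, a 1.95-fold fall against isotonic (edgeR adjusted p = 0.0118). Its span overlaps DIMT1 and IPO11, so the value is uncertain. The libraries other than rescue lay within 221 to 232 CPM, above both rescue values.

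The members that rose include motors known from motile cilia. KIF27, linked to ciliary motility in mice, had 33.4 and 34.1 CPM in rescue, 10.3 and 14.5 CPM in hypertonic and 14.6 and 10.9 CPM in isotonic, a 2.17-fold rise against isotonic (edgeR adjusted p = 0.0236). KIF9, which acts in the central apparatus of motile cilia, had 18.7 and 19.0 CPM in rescue, 8.08 and 9.67 CPM in hypertonic and 9.91 and 7.15 CPM in isotonic, a 1.82-fold rise (edgeR adjusted p = 0.0369). KIF26B, an atypical kinesin that acts in Wnt5a signalling, had 12.5 and 13.4 CPM in rescue, 5.03 and 4.89 CPM in hypertonic and 4.99 and 5.62 CPM in isotonic, a 1.98-fold rise (edgeR adjusted p = 0.0361). The rescue values of these 3 genes lay above all other libraries, as they did for 46.9% of all genes tested by library total and 34.7% by TMM-scaled CPM. KIF9 overlaps KLHL18. In 20 of the 42 members, among them KIF9, KIF26B, KIF27, KIF25, KIF11, KIF23, KIF22, KIF4A, KIFC1, KIF2A, KIF2C, KIF1C, KIF13A and KIF3A, the span also holds an annotated noncoding gene or pseudogene on the opposite strand, and how the counting treated strand is not given in the sources used here, so these counts are uncertain. The calls of KIF9 and KIF26B against isotonic also ended without hypertonic 1 (edgeR adjusted p = 0.0628 for KIF9 and 0.0585 for KIF26B) or without hypertonic 2 (edgeR adjusted p = 0.0655 and 0.0602), and that of KIF9 against hypertonic ended without isotonic 1 or isotonic 2.

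KIF19, which controls ciliary length in mice, and KIF25 were below 5 CPM on average and are named after their values were seen. KIF19 had 4.72 and 4.24 CPM in rescue, 0.523 and 0.502 CPM in hypertonic and 0.703 and 0.554 CPM in isotonic, a 5.83-fold rise against isotonic (edgeR adjusted p = 0.0109). KIF25, a motor described at centrosomes, had 2.59 and 2.92 CPM in rescue, 0.671 and 0.560 CPM in hypertonic and 0.532 and 0.710 CPM in isotonic, a 3.59-fold rise (edgeR adjusted p = 0.0303). Beside these rises, a class of genes known from sensory neurons was higher in rescue: the 381 olfactory receptor genes summed to 114 and 123 CPM in rescue, 39.8 and 56.6 CPM in hypertonic and 59.6 and 40.2 CPM in isotonic. Genes without any count numbered 690 and 699 in rescue, 1248 and 1653 in hypertonic and 1627 and 1270 in isotonic. The epithelial sum given above was highest in rescue too, and the endothelial sum stood at 32.3 and 31.4 CPM in rescue, 28.2 and 7.93 CPM in hypertonic and 8.24 and 28.97 CPM in isotonic. Their members differed. PECAM1 had 14.3 and 12.8 CPM in rescue, 23.9 and 3.48 CPM in hypertonic and 3.59 and 24.7 CPM in isotonic. VWF, CDH5, KDR, EPCAM and KRT14 were highest in both rescue libraries, as held for 46.9% of all genes tested by library total. In rescue, CDH1, at 0.962 and 0.750 CPM, and KRT5, at 0.538 and 0.728 CPM, overlapped the other libraries. The part of these genes in the results was not tested. KIF12 had under 0.09 CPM in every library and was not tested.

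**Figure D4:**
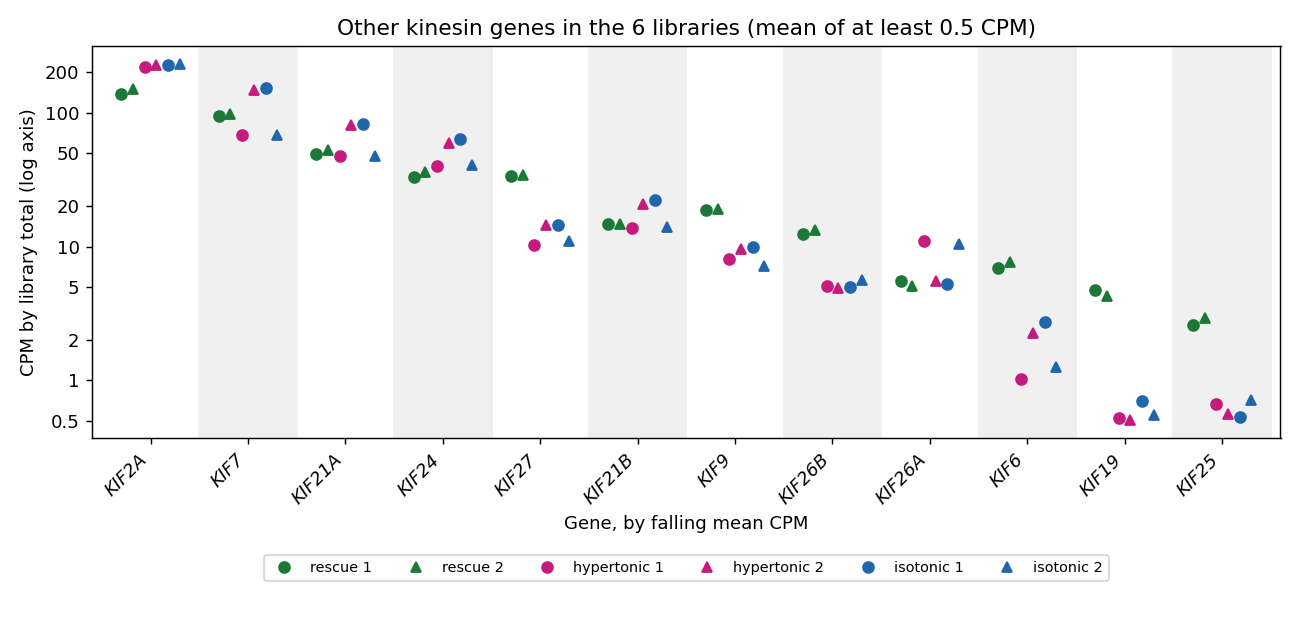
Library-total CPM (log axis) of the other kinesins shown, 1 point per library in the order rescue, hypertonic and isotonic, with circles for number 1 and triangles for number 2. KIF27, KIF9 and KIF26B have both rescue points above the other 4, and KIF2A has both below.

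KIF7, a regulator of Hedgehog signalling at the ciliary tip, had 94.9 and 97.9 CPM in rescue, 67.7 and 149 CPM in hypertonic and 153 and 68.3 CPM in isotonic. Its rescue values fell between the crossed pairs, as those of KIF2C did (edgeR adjusted p = 0.526 for rescue against isotonic). KIF7 overlaps TICRR, so its count is uncertain. KIF6, known from motile cilia in mice and zebrafish and named after its values were seen, had 6.93 and 7.61 CPM in rescue, 1.03 and 2.24 CPM in hypertonic and 2.74 and 1.26 CPM in isotonic, and did not pass (edgeR adjusted p = 0.0927 against isotonic). KIF21A, KIF21B, KIF24 and KIF26A did not pass either, with log2 fold changes between -0.89 and -0.58 against isotonic. Both rescue libraries were above all 4 others in 6 of the 12 tested other kinesins by library total, where that held for 46.9% of all genes tested, and in 6 by TMM-scaled CPM, where it held for 34.7%.

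**Figure D5:**
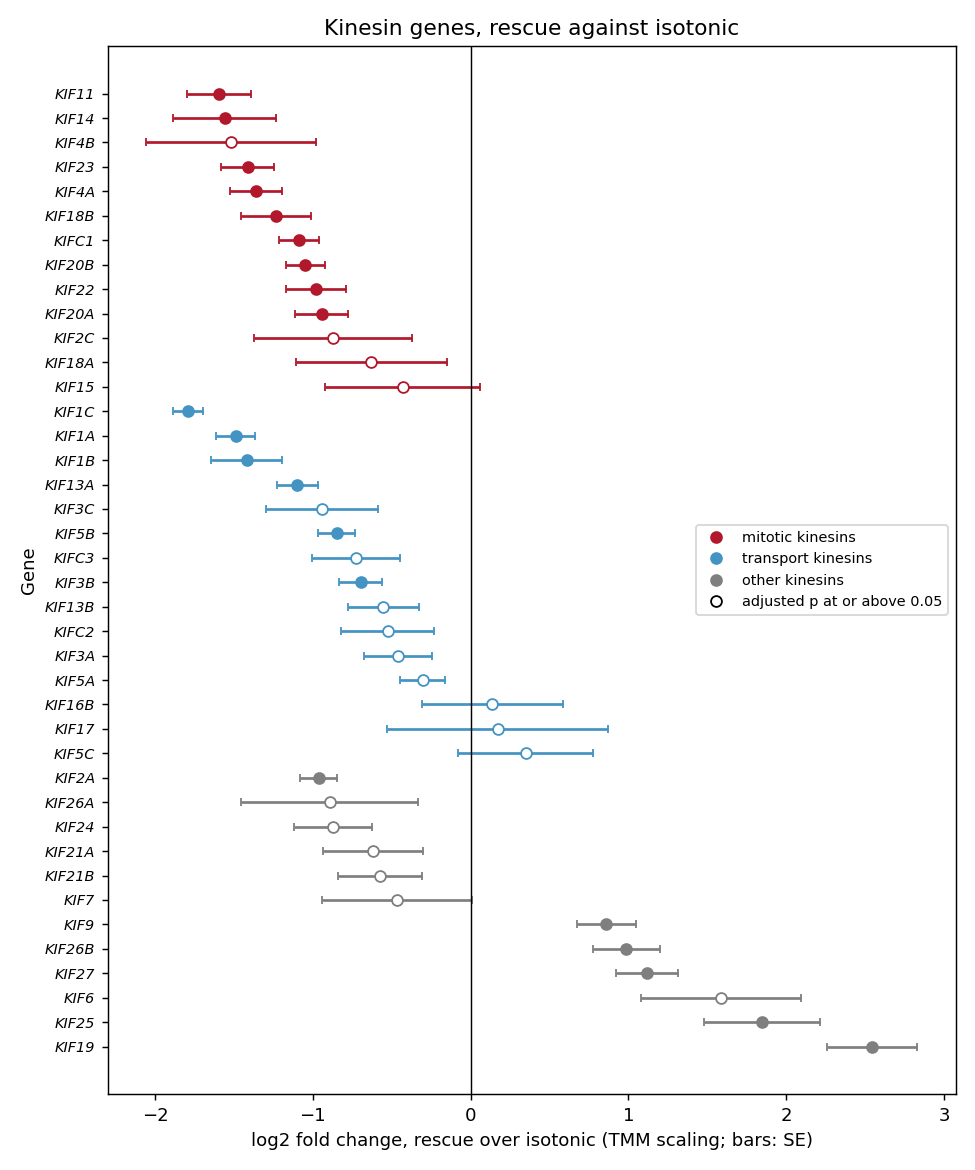
Log2 fold changes of rescue against isotonic with standard errors from edgeR for the tested kinesins, by class. The mitotic kinesins all lie below 0, while KIF19 of the other kinesins lies highest, at 2.54. Filled points passed the test, and open points had an adjusted p at or above 0.05.

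Genes for proteins that work with the motors were counted next. Of 12 partners of mitotic kinesins, 7 fell and 0 rose in rescue against isotonic (median log2 fold change -1.12), and 7 fell and 1 rose (STARD9, a kinesin under another symbol) against hypertonic. Over all genes tested, 13.5% fell and 9.61% rose against isotonic, and 13.8% fell and 9.86% rose against hypertonic. PRC1, which bundles the central spindle and recruits KIF4A, had 95.7 and 90.1 CPM in rescue, 169.7 and 200.5 CPM in hypertonic and 205 and 166 CPM in isotonic, a 2.44-fold fall (edgeR adjusted p = 0.00891). RACGAP1, the partner of KIF23 in centralspindlin, fell 2.68-fold (edgeR adjusted p = 0.0216), and ECT2, which it recruits, fell 2.01-fold (edgeR adjusted p = 0.0108). TPX2, a spindle assembly factor that binds KIF11, was called lower as well. CENPE, a kinetochore kinesin under another symbol, had 110.1 and 117 CPM in rescue, 113 and 269 CPM in hypertonic and 262 and 119 CPM in isotonic, so that by library total rescue lay near the lower crossed pair. By TMM-scaled CPM both rescue libraries lay below all hypertonic and isotonic libraries. CENPE did not pass against isotonic (log2 fold change -1.01, edgeR adjusted p = 0.216).

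Of 16 measured partners of transport kinesins, 3 fell and 0 rose in rescue against isotonic, a share close to the 13.5% of all genes that fell (median -0.28 beside -0.02 over all genes). The 3 were PLEKHM2, a lysosomal adaptor for kinesin-1, with a log2 fold change of -0.77 (edgeR adjusted p = 0.0207), RHOT2, a mitochondrial adaptor, at -0.61 (edgeR adjusted p = 0.0366), and KLC2, a kinesin light chain, at -0.68 (edgeR adjusted p = 0.0430). Dynein and dynactin, the motor complex that runs in the opposite direction, had 6 of 20 genes lower and 0 higher (median -0.48), where 13.5% of all genes tested fell and 9.61% rose. DCTN2, the dynactin subunit dynamitin, was at 40.1 and 40.6 CPM in rescue, 64.2 and 72.2 CPM in hypertonic and 74.3 and 63.8 CPM in isotonic, with a 2.10-fold fall against isotonic (edgeR adjusted p = 0.00940). ACTR1A, the filament subunit of dynactin, fell 2.41-fold (edgeR adjusted p = 0.0135), DYNLL2, a dynein light chain, 1.82-fold (edgeR adjusted p = 0.0123) and DYNC1I2, a dynein intermediate chain, 1.65-fold (edgeR adjusted p = 0.0152). In hypertonic against isotonic, edgeR called 0 genes of these 3 lists, and at an unadjusted p under 0.05 the count over all genes was the 52 given above.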

How the data were processed

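Total RNA of 6 libraries was sequenced with 100-nt reads on an Illumina HiSeq after ribosomal RNA removal and uridine digestion, per the labels' protocols. The submitters' processing notes name bcl2fastq, TopHat2, Bowtie2, bedtools and GRCh38 (hg38). Neither tool versions nor the annotation or strand setting of the counting step is given in the sources used here. Each library has a table of raw gene counts, deposited by the authors without normalization. Genes were located with GENCODE release 29, and 9 of the 42 members overlap another coding gene.

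From the counts, CPM was computed by library total. Differences were tested with edgeR 4.0.16 in R 4.3.3 (filterByExpr, TMM, robust quasi-likelihood test, 1 mean per labelled group over all 6 libraries, two-sided, Benjamini-Hochberg adjustment over 18208 genes, threshold 0.05). The common dispersion was 0.148 with 3 residual degrees of freedom. Ratios within a number used CPM plus 0.1. The steps were tested on simulated data, where recovery of set changes was required only at a dispersion far below that of these data. Alternatives were DESeq2 1.42.0, limma voom 3.58.1, no filter, other scalings, left-out libraries, a replicate block and other class lists. A floor of 3 counts covers counting error alone.

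Members with a mean of at least 5 CPM that passed any comparison, a set of listed kinesins and the extremes within each number were named, with up to 4 members per partner list. The members and lists were chosen with earlier results of these data known.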

Additional observations from a re-analysis of the deposited data

How the results depend on the processing

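Over all genes, DESeq2 called 7041 genes in rescue against isotonic and 7105 in rescue against hypertonic, where edgeR called 4202 and 4304; in hypertonic against isotonic it called 1. With library totals, 4 mitotic kinesins were lower in each rescue comparison in place of 9. Leaving out 1 library at a time gave between 0 and 3460 genes in rescue against isotonic and between 0 and 3691 in rescue against hypertonic, between 0 and 9 mitotic and between 0 and 6 transport kinesins lower in each, and 0 calls in hypertonic against isotonic. Calls in a rescue comparison were lost without either library of rescue or of its comparison group. Of 19 named kinesins called in rescue against isotonic, 19 kept the call in DESeq2, limma voom, RLE scaling and without the filter, 15 with upper quartile scaling and 13 with library totals.

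Same-numbered libraries deviated with correlations of 0.0427 for rescue with hypertonic, -0.0301 for rescue with isotonic and -0.961 for hypertonic with isotonic, so the numbers do not pair them. With the replicate block, 0 genes, 0 mitotic and 0 transport kinesins were called in each comparison. Crossing the pairs of hypertonic and isotonic libraries gave 21 genes and 0 kinesins called.

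The number 1 and number 2 fits called 14591 and 14898 genes in rescue against isotonic, 15027 and 14586 in rescue against hypertonic, and 11841 and 11776 in hypertonic against isotonic. Transport kinesins called lower and higher in number 1 were 13 and 2 in rescue against isotonic, 13 and 1 in rescue against hypertonic, and 3 and 8 in hypertonic against isotonic. In number 2 they were 12 and 1, 13 and 2, and 7 and 3. Mitotic kinesins called lower in hypertonic against isotonic were 10 in number 1 and 1 in number 2, and 10 were higher in number 2; 1 was higher in rescue against isotonic in number 2.

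KIF15 reversed to 0.18 in rescue against isotonic without isotonic 1 or in the number 2 fit, and to 0.15 in rescue against hypertonic without hypertonic 2 or in the number 1 fit; leaving out libraries in turn gave -0.86 to 0.18 and -0.87 to 0.15. KIF17 likewise reversed to -0.38 and -0.35, within -0.38 to 1.06 and -0.35 to 1.15. In hypertonic against isotonic, library totals reversed KIF1C to -0.13 and KIF2A to -0.032 in number 1 and KIF1C to 0.14 in number 2, where upper quartile scaling gave 0.0017. The cause was not tested. Grouped fold changes of single kinesins in hypertonic against isotonic were not run under each alternative. Counts limit precision for KIF2B, KIF4B and KIF12.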
